A study of Mus musculus with 24 samples.

Results

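The nuclear genes for the subunits of oxidative phosphorylation were followed through B cell development in mouse bone marrow, with and without Vhl. They were chosen by symbol alone: names opening with Nduf and a subunit letter, Sdha to Sdhd, Uqcr, Cox5, Cox6b, Cox6c, Cox7, Cox8 and Atp5, leaving out Ndufa4l2. The rule found 79 of the 24421 genes counted, with 35 in complex I, 4 in complex II, 8 in complex III, 15 in complex IV and 17 in complex V. Of these, 76 passed the expression filter. The 3 that did not are tissue isoforms of complex IV: Cox7b2 and Cox8c had 0 counts in all 24 libraries, and Cox8b had 4 counts over all of them. Ndufa4, first described as a complex I protein and now placed in complex IV, was grouped with complex IV. Cox7a2l, Atp5s and Atp5sl match the symbol rule but are not plain subunits.

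RNA was taken from 3 populations sorted from bone marrow and labelled proBpreB (pro-B and pre-B cells together), immature and mature B cells. All 8 mice carried 1 copy of Mb1-Cre, a recombinase driven by a gene of the B cell receptor complex and therefore active from early B cell stages on. In 4 mice both Vhl alleles were floxed (flox/flox), and in the 4 controls 1 was (flox/WT), so the controls carried the recombinase too. Each mouse gave 1 library of each population, which makes 6 groups of 4 libraries. The labels state neither ages nor sorting gates, and a sorted population can hold cells in which Vhl was not deleted.

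Electrons enter the respiratory chain from NADH at complex I and from succinate at complex II, pass to complex III and then, by cytochrome c, to complex IV, where oxygen is reduced. Complexes I, III and IV pump protons, and complex V uses the gradient to make ATP. Complex II is made wholly of nuclear subunits, while the others also hold subunits encoded in mitochondrial DNA, which were not analysed here. Vhl marks the hypoxia-inducible factors (HIF) for destruction. HIF is known for switching on genes that adapt the chain to low oxygen, among them Ndufa4l2 and Cox4i2, which are outside the symbol rule and serve here as reference genes.

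Total counts ran from 7850186 to 11863949 per library. Values per gene are CPM, counts scaled to library size, after TMM scaling, which evens out differences in library composition. Vhl itself checked the labels: it stood at 25.3 ± 2.02 CPM (SD, n = 4) in proBpreB flox/WT cells and 10.2 ± 3.37 in flox/flox cells, at 35.5 ± 8.88 against 5.58 ± 2.31 in immature cells and at 29.1 ± 2.81 against 7.60 ± 1.90 in mature cells. It was lower in every flox/flox library than in any control of its stage (exact two-sided permutation test, p = 0.0286 at each stage, the smallest that 70 assignments allow). The stage markers followed the labels, with the summed level of 9 mature B cell markers rising from a median of 1576 CPM in proBpreB to 19980 CPM in mature flox/WT cells. Erythroid markers were also present, and their sum over 8 genes ran from 1313 to 4076 CPM in immature flox/WT and from 5203 to 9527 CPM in immature flox/flox libraries. In sorted bulk RNA, fewer cells of a type and less RNA per cell cannot be told apart.

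Of the 76 tested members, 3 passed the test between genotypes at all 3 stages (edgeR quasi-likelihood test, Benjamini-Hochberg adjusted p under 0.05 over 12850 genes). The complex I subunit gene Ndufv3 and the complex IV isoform gene Cox7a1 rose in flox/flox cells, and Ndufa4 of complex IV fell. A further 2 members passed at 2 stages, 10 at 1 stage and 61 at none. In 68 members the genotype difference stayed within 0.5 on the log2 scale at every stage. These counts across stages were not made over all genes. The share of all genes called at each single stage is given below.

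These 3 genes respond in different directions, so their start sites are shown together, as 140 bases from 110 before to 30 after the RefSeq start (build GRCm38.p6), 5′ to 3′ on the coding strand. Capitals mark the core of the hypoxia response element, searched as ACGTG and GCGTG on both strands, where CACGT and CACGC are the same cores on the other strand.
Ndufv3, chr17:31520005-31520144, plus strand: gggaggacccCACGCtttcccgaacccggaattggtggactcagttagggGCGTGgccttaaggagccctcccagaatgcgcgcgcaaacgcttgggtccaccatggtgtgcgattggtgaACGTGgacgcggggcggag
Cox7a1, chr7:30184061-30184200, plus strand: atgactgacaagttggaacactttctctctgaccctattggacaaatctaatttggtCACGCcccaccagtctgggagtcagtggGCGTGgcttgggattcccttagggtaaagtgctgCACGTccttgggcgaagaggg
Ndufa4, chr6:11907421-11907560, minus strand: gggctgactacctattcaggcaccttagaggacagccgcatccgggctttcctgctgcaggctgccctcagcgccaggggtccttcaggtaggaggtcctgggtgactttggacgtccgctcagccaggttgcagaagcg

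Over the longer window of 250 bases before to 50 after the start, Ndufv3 held 4 matches, Cox7a1 held 3 and Ndufa4 held 1, which lies at base 36 after the start, beyond the stretch shown. The motif is short and common. ACGTG occurred in 27.3% and GCGTG in 53.0% of the 66 tested members with a promoter sequence, against 25.8% and 50.8% of the promoters of all tested genes. Of 3 longer motifs named for nuclear regulators of respiratory genes, 2 had a larger share among the members: the NRF1 motif GCGCATGCG stood in 7 of 66 (10.6%, against 3.7% of tested genes) and the YY1 motif AAGATGGCG also in 7 (10.6%, against 3.3%). The ETS motif CCGGAAG stood in 14 (21.2%), close to its share among tested genes (18.5%). None of the 3 genes above held any of these 3 motifs. Each match describes letters in a window and no binding was measured.

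**Figure D1:**
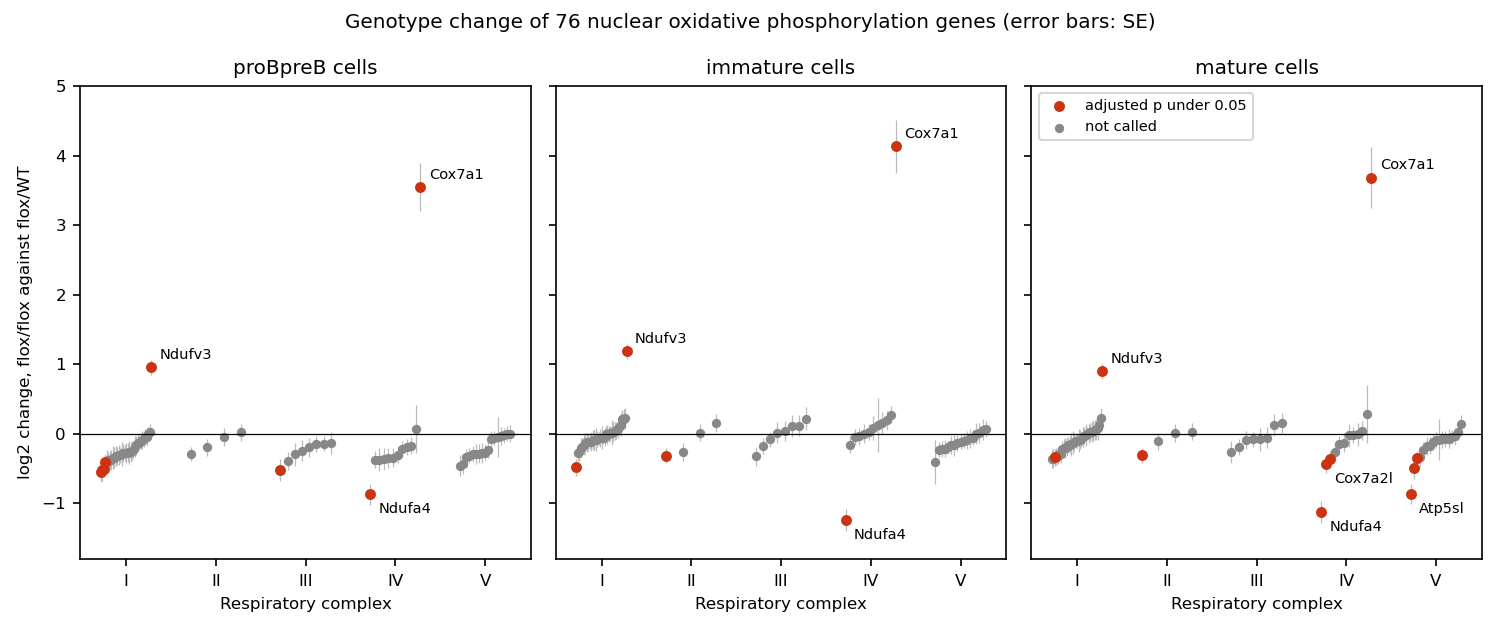
Each point is 1 member gene, placed by complex on the horizontal axis and by its log2 change in flox/flox against flox/WT cells on the vertical axis, with the SE as a bar, for the 3 stages. Red points passed adjusted p under 0.05, and Cox7a1 and Ndufv3 stand above and Ndufa4 below the other members in all 3 panels.

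Cox7a1 encodes the form of a small complex IV subunit that heart and skeletal muscle use in place of Cox7a2. It was close to the limit of detection in flox/WT cells, where 3 counts correspond to 0.253 to 0.382 CPM. In proBpreB cells the 4 flox/WT libraries gave 1.10, 0.770, 1.84 and 1.35 CPM and the 4 flox/flox libraries 14.7, 15.5, 12.3 and 16.8 CPM. The groups did not overlap, and the log2 change was 3.55 ± 0.35 (SE, edgeR adjusted p = 1.06e-08). Immature flox/WT libraries held 0.631, 1.52, 0.421 and 0.185 CPM against 13.3, 12.4, 11.2 and 9.16 CPM in flox/flox cells. That was a log2 change of 4.13 ± 0.39 (edgeR adjusted p = 2.59e-09). Mature cells had the lowest levels in both genotypes, at 0.482, 0.126, 0.622 and 0.190 CPM against 3.19, 4.52, 5.60 and 5.13 CPM. There the log2 change was 3.68 ± 0.44 (edgeR adjusted p = 3.52e-07). Summed counts were 12.1 times higher in flox/flox proBpreB cells (95% exact interval 9.19 to 16.1, for counting error only), 17.5 times higher in immature cells (11.5 to 27.6) and 13.5 times higher in mature cells (7.55 to 26.7). Even so, Cox7a1 remained a minor transcript per length: it ranked last of 75 members in each flox/WT group and between 69 and 73 in the flox/flox groups. The isoform used elsewhere, Cox7a2, had log2 changes of -0.34, 0.19 and 0.05 at the successive stages and passed at none of them.

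Ndufv3 encodes a small supernumerary subunit beside the flavoprotein of complex I that binds NADH. Its flox/WT libraries held 50.5, 47.2, 65.6 and 61.3 CPM in proBpreB cells, against 118, 112, 103 and 102 CPM in flox/flox cells. The immature controls gave 58.5, 55.6, 57.0 and 60.5 CPM, against 129, 144, 122 and 134 CPM. Mature controls gave 59.6, 69.9, 54.1 and 59.7 CPM, against 107, 127, 107 and 112 CPM. The 12 control libraries thus lay between 47.2 and 69.9 CPM at all stages, below every flox/flox library. The log2 changes were 0.95 ± 0.11, 1.19 ± 0.11 and 0.90 ± 0.11 (edgeR adjusted p = 2.02e-07, 1.69e-09 and 4.60e-07). The gene spans chr17:31520115-31531326 on the plus strand, and no other annotated gene shares its exons. Ndufv1 and Ndufv2, the other genes of that part, named for comparison, did not pass at any stage.

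Ndufa4 moved the other way. In proBpreB cells the control libraries gave 199, 186, 381 and 271 CPM, and the flox/flox libraries 142, 147, 144 and 135 CPM. For immature cells the values were 187, 193, 180 and 180 CPM against 84.7, 81.5, 68.5 and 78.5 CPM. For mature cells they were 161, 186, 181 and 159 CPM against 71.3, 77.2, 99.7 and 67.2 CPM. The genotypes did not overlap at any stage. The log2 changes were -0.87 ± 0.15, -1.24 ± 0.16 and -1.12 ± 0.16 (edgeR adjusted p = 2.71e-04, 6.63e-07 and 4.52e-06). Per length, Ndufa4 ranked 4, 7 and 6 of 75 members in proBpreB, immature and mature flox/WT cells and 10, 34 and 29 in flox/flox cells. The proBpreB difference is the least certain, since flox/WT replicates 3 and 4 were high: without them the log2 change was -0.44, with an adjusted p of 0.0501. The other changes of Ndufa4, and all of Ndufv3 and Cox7a1, passed in every alternative run.

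**Figure D2:**
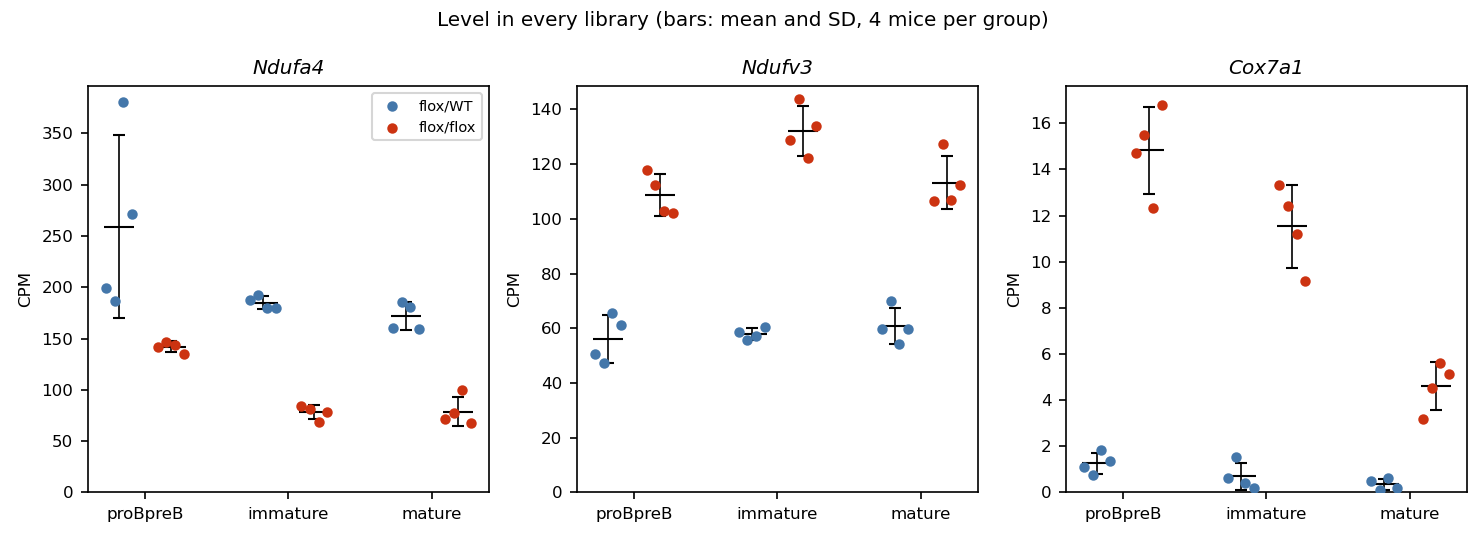
CPM of Ndufa4, Ndufv3 and Cox7a1 (vertical axes, starting at 0) in every library by stage and genotype, with the mean and SD of 4 mice as bars. Flox/WT and flox/flox points do not overlap in any of the 9 contrasts, and the proBpreB flox/WT points of Ndufa4 spread from 186 to 381 CPM.

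The reference genes outside the symbol rule changed as follows. Ndufa4l2, a paralogue of Ndufa4, rose at all 3 stages but stayed low, from 0.0685 ± 0.0457 to 1.08 ± 0.406 CPM in proBpreB, from 0.124 ± 0.175 to 1.05 ± 0.543 CPM in immature and from 0.123 ± 0.0985 to 4.29 ± 1.14 CPM in mature cells (edgeR adjusted p = 0.00153, 0.00479 and 4.20e-06). In mature flox/flox cells it was thus well below the 78.8 ± 14.5 CPM of Ndufa4 itself. Cox4i2, the hypoxia isoform of a core nuclear subunit of complex IV, rose from 0.262 ± 0.147 to 5.69 ± 1.07 CPM in proBpreB cells (edgeR adjusted p = 5.08e-06). The immature flox/WT libraries held 0 counts and the flox/flox libraries 20, with 11, 4, 2 and 3 in replicates 1 to 4. Against a floor of 3 counts over the flox/WT group that is 7.85-fold, which leaves out the counting error of the 20. In mature cells 2 counts stood against 10, a ratio of 4.89 (95% exact interval 1.04 to 45.9), and the change did not pass (edgeR adjusted p = 0.158). Ndufa4l2 and Cox4i2 passed the expression filter through flox/flox libraries: no flox/WT library exceeded 0.370 CPM for Ndufa4l2 or 0.449 CPM for Cox4i2. Their adjusted p-values are therefore given as description, since the groups tested are those that let these genes in. Cox4i1, the usual isoform, did not pass at any stage, with log2 changes of -0.34, 0.09 and -0.22. Cox6a2, another muscle isoform of complex IV, passed at the immature stage and missed the threshold at the other two (edgeR adjusted p = 0.265 in proBpreB and 0.637 in mature cells). The immature level went from 5.41 ± 2.36 to 57.5 ± 8.08 CPM (log2 3.43 ± 0.26, edgeR adjusted p = 9.50e-11). Cyc1, Cox6a1 and Ndufab1, ordinary subunits outside the rule, did not pass at any stage.

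In proBpreB cells 2 members were higher and 6 lower in flox/flox cells. Over all genes 3.38% were called higher and 2.75% lower, against 2.63% and 7.89% of the members, and the median log2 change of the members was -0.27. The genes lower beside Ndufa4 were 4 of complex I and 1 of complex III. Ndufs8, an iron-sulphur core subunit of complex I, was at 169, 176, 234 and 204 CPM in flox/WT and 136, 140, 128 and 146 CPM in flox/flox cells (log2 -0.51 ± 0.12, edgeR adjusted p = 0.00574). The groups did not overlap, and the highest values again belonged to flox/WT replicates 3 and 4. Ndufa11 (94.6, 105, 145 and 139 CPM against 83.6, 82.3, 77.8 and 87.2 CPM) changed by -0.55 ± 0.14 (edgeR adjusted p = 0.0139). Ndufs5 and Ndufb8, supernumerary subunits of complex I, had log2 changes of -0.40 and -0.52 (edgeR adjusted p = 0.0353 and 0.0393). Uqcrq, a small subunit of complex III, changed by -0.52 (edgeR adjusted p = 0.0393). Groups did not overlap for 2 members higher and 14 lower, against 7.85% and 7.60% of all genes. Of the 17 members of complex V no gene passed by edgeR, 8 were lower at an unadjusted p under 0.05, and the median was -0.27. All genes were not counted at that unadjusted threshold, so the 8 have no background.

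These proBpreB falls move with 2 libraries. The median member stood at 0.28 and 0.09 log2 units above the flox/WT mean in flox/WT replicates 3 and 4, at -0.17 and -0.18 in replicates 1 and 2, and between -0.27 and -0.20 in the flox/flox libraries. The 523 other tested genes with transcripts under 1000 bases did likewise: 0.276 and 0.145 in replicates 3 and 4, -0.215 and -0.205 in replicates 1 and 2, and -0.210 to -0.108 in flox/flox libraries. The 39 members with transcripts of 1000 bases or more moved the same way, with medians of 0.217 and 0.068 in replicates 3 and 4 and of -0.126 and -0.120 in replicates 1 and 2. The 11411 other genes of that length stayed between -0.025 and 0.024 in all 8 libraries. Sdha was an exception among the members, at 219 and 220 CPM in replicates 3 and 4 against 352 and 346 CPM in replicates 1 and 2. Without replicates 3 and 4, a choice made after the values were seen, 0 members were lower by edgeR and the median was -0.06. Calls over all genes, in either direction, fell too, from 788 of 12850 to 440 of 13203. Leaving out flox/WT replicate 3 or 4 alone left 2 lower members, leaving out flox/flox replicate 1, 3 or 4 left 3, and without flox/WT replicate 1 or 2 there were 14 and 13. Calls over all genes numbered 710 and 493 without flox/WT replicate 3 or 4. They numbered 554, 625 and 537 without flox/flox replicate 1, 3 or 4, and 889 and 692 without flox/WT replicate 1 or 2. What set these libraries apart was not tested.

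**Figure D3:**
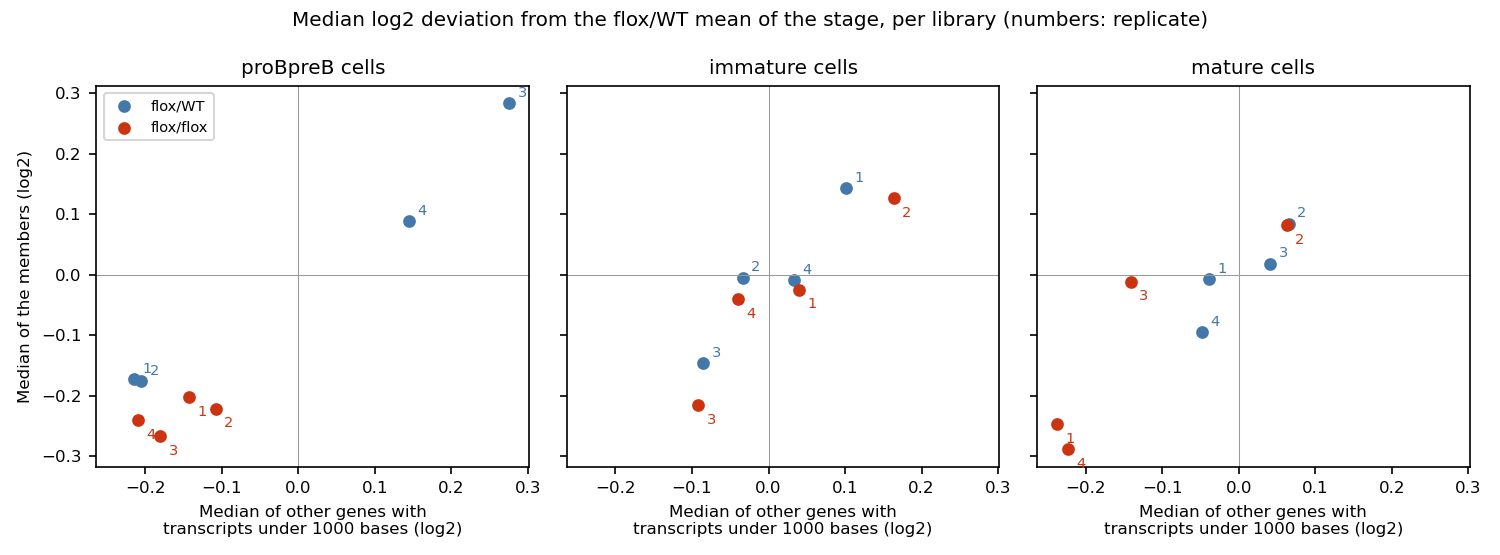
Each point is 1 library, numbered by replicate: the horizontal axis is the median log2 deviation of 523 other genes with transcripts under 1000 bases, the vertical axis that of the members, both from the flox/WT mean of the stage. In proBpreB cells flox/WT replicates 3 and 4 lie apart at the upper right (0.28 and 0.09 for the members), and in mature cells flox/flox replicates 1 and 4 lie at the lower left (-0.25 and -0.29).

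In immature cells few members differed. Of 76, 2 were higher and 3 lower (2.63% and 3.95%), fewer than the 10.2% and 10.5% of all tested genes called in those directions, and the median log2 change was -0.05. Apart from Ndufa4 the lower genes were Ndufa10 and Sdhb. Ndufa10, a supernumerary subunit of the membrane arm of complex I, was at 78.9, 94.1, 82.9 and 95.1 CPM in flox/WT and 64.6, 53.9, 68.2 and 64.6 CPM in flox/flox cells. The groups did not overlap, the log2 change was -0.48 ± 0.12 (edgeR adjusted p = 0.00345), and the call passed in every alternative. No gene of complex III or complex V passed. Groups did not overlap for 2 members higher and 4 lower, against 11.4% and 11.5% of all genes. In the same comparison all 15 cell cycle genes were lower, with a median log2 change of -1.70, and 5 of 8 erythroid markers were higher. Their part in the members' values was not tested.

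Among mature libraries 2 members were higher and 8 lower (2.63% and 10.5%, against 9.69% and 6.62% of all genes), and the median log2 change was -0.09. The 8 were spread over complexes I, II, IV and V, and included Ndufa10 (log2 -0.34, edgeR adjusted p = 0.0470). That call of Ndufa10 was lost in 12 of 15 alternatives, with adjusted p up to 0.234. Groups did not overlap for 2 members higher and 4 lower, against 9.01% and 7.26% of all genes. Atp5sl, which RefSeq lists as Dmac2, a factor for assembly of the membrane arm of complex I, was at 53.3, 56.1, 85.2 and 81.7 CPM in flox/WT and 38.0, 37.1, 36.9 and 39.4 CPM in flox/flox cells. Its log2 change was -0.87 ± 0.15 (edgeR adjusted p = 7.29e-05). Cox7a2l, which helps join complexes III and IV into supercomplexes, was at 134, 157, 140 and 123 CPM against 103, 104, 101 and 101 CPM. Its groups did not overlap either, and the log2 change was -0.44 ± 0.12 (edgeR adjusted p = 0.0133). The call was lost, at an adjusted p of 0.0518, without flox/WT replicate 2, and at 0.0721 without flox/flox replicates 1 and 4. Cox8a, the most abundant member of complex IV per length, changed by -0.37 (edgeR adjusted p = 0.0300). Of complex V, Atp5e and Atp5d, both in the soluble F1 part, changed by -0.49 and -0.35 (edgeR adjusted p = 0.0243 and 0.0276), and their groups overlapped.

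Libraries again differed within the mature flox/flox group. Replicates 1 and 4 had a median member at -0.25 and -0.29 log2 units from the flox/WT mean, and replicates 2 and 3 at 0.08 and -0.01. For other genes with transcripts under 1000 bases the values were -0.238 and -0.223 against 0.063 and -0.141. Without replicates 1 and 4, also a choice made after the values were seen, 2 members were lower (Ndufa4 at a log2 change of -0.96 and Atp5sl at -0.90) and the median was 0.04. With flox/WT replicate 2 left out, there were 3 lower members, as many as without flox/flox replicate 1 and without replicate 4. Leaving out replicate 3 of either genotype gave 4. Without flox/flox replicate 2 there were 15. Calls over all genes, in either direction, were 2096 of 12850 in the main fit and 1508 of 13248 without flox/flox replicates 1 and 4. They were 1902 without flox/WT replicate 2, and 1677 and 1986 without flox/flox replicate 1 or 4. Without replicate 3 they were 1607 (flox/WT) and 1650 (flox/flox), and without flox/flox replicate 2 they were 2159. The 9 cell cycle genes of 15 that were higher in mature flox/flox cells, and the 3 of 8 erythroid markers that were, are given as values beside this result and their part in it was not tested.

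Complex II showed 1 change among its 4 genes. Sdhb, the iron-sulphur subunit that passes electrons to ubiquinone, was at 220, 207, 183 and 231 CPM in immature flox/WT and 177, 183, 154 and 162 CPM in flox/flox cells (log2 -0.31 ± 0.10, edgeR adjusted p = 0.0309). Mature cells gave 187, 205, 175 and 163 CPM against 135, 177, 134 and 143 CPM (log2 -0.31 ± 0.10, edgeR adjusted p = 0.0397). In proBpreB cells the groups did not overlap, at 212, 208, 236 and 226 CPM against 184, 176, 177 and 183 CPM, but the log2 change of -0.29 did not pass (edgeR adjusted p = 0.0951). The immature call was lost in 4 of 14 alternatives and the mature call in 10 of 15. Sdha, the flavoprotein that oxidises succinate, had genotype log2 changes of 0.02, -0.26 and -0.11, and none passed. Its proBpreB controls were split, at 352, 346, 219 and 220 CPM in replicates 1 to 4, around the 277 to 299 CPM of the flox/flox libraries. The membrane anchors Sdhc (-0.04, 0.16 and 0.01) and Sdhd (-0.19, 0.02 and 0.03) did not pass at any stage.

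The smallest genotype changes of each stage follow. They are point estimates picked for their size, so they do not measure precision. Atp5d, named here for proBpreB cells, was called lower in mature cells (log2 -0.35, edgeR adjusted p = 0.0276). In proBpreB cells Atp5d, Ndufs1 and Atp5g1 had log2 changes of 0.0026, 0.0030 and 0.0042. The smallest in immature cells were those of Atp5l (0.00021), Cox6c (0.0027) and Ndufs3 (-0.0039), and in mature cells those of Ndufs1 (0.0029), Ndufa3 (0.0068) and Sdhc (0.0077). Atp5b, the catalytic subunit of complex V and the most abundant member per length in all 6 groups, had log2 changes of -0.06, -0.20 and -0.05. On counts simulated from these libraries, edgeR recovered 74% of 2-fold and 10% of 1.3-fold changes in the proBpreB contrast, so changes as small as 1.3-fold were mostly not detectable in that contrast.

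Whether the genotype effect differed between stages was tested directly. Between mature and immature cells it differed for 2 members, 2.63% of them, against 7.74% of all genes. Cox7a2l changed by 0.28 in immature and -0.44 in mature cells, a difference of -0.71 ± 0.17 (edgeR adjusted p = 0.00751). Atp5sl changed by 0.06 and -0.87, a difference of -0.93 ± 0.20 (edgeR adjusted p = 0.00324). Both differences passed in all 23 alternatives. None of those left out mature flox/WT replicates 3 and 4 together, where Atp5sl stood at 85.2 and 81.7 CPM against 53.3 and 56.1 CPM in replicates 1 and 2. In flox/WT cells both genes rose from the immature to the mature stage (Cox7a2l by 0.34 and Atp5sl by 0.54 on the log2 scale, edgeR adjusted p = 0.0297 and 0.00460), and in flox/flox cells both fell (-0.37 and -0.40, edgeR adjusted p = 0.0237 and 0.0438), though the fall of Atp5sl was lost in 11 of 15 alternatives.

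**Figure D4:**
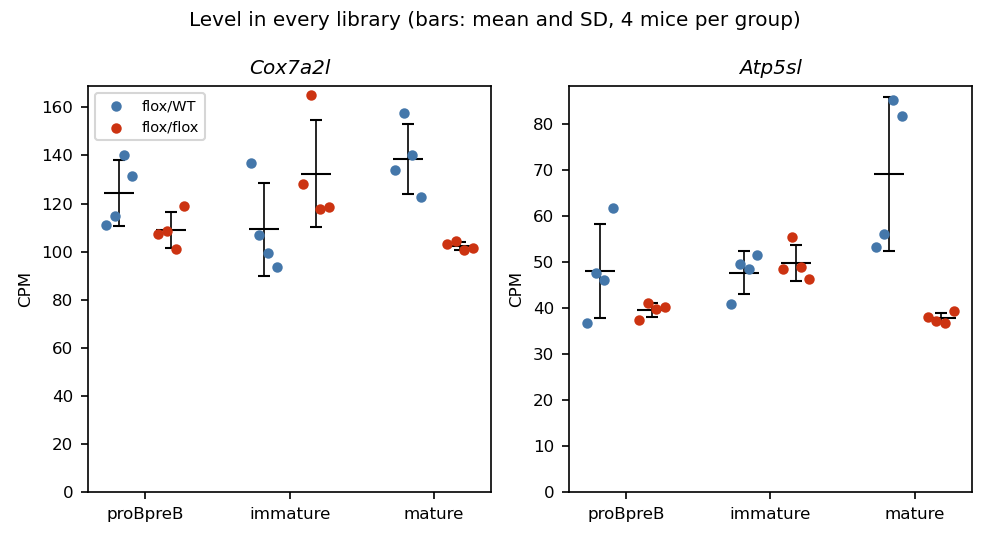
CPM of Cox7a2l and Atp5sl (vertical axes, starting at 0) in every library by stage and genotype, with the mean and SD of 4 mice as bars. The 4 mature flox/flox libraries lie between 101 and 104 CPM for Cox7a2l and between 36.9 and 39.4 CPM for Atp5sl, below every mature flox/WT library.

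Between immature and proBpreB cells edgeR found 0 members with a different genotype effect, while 10.9% of all genes had one. At an unadjusted p under 0.05, a threshold at which all genes were not counted, there were 12, and DESeq2 called 1. Between mature and proBpreB cells the count was also 0 by edgeR and by DESeq2 (3.06% of all genes by edgeR), with 4 at an unadjusted p under 0.05, and 1 was called when each mouse was kept as a block. The changes of Ndufa4, Ndufv3 and Cox7a1 were thus not shown to differ between stages.

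Summed over all members, the module was lowest in mature cells in both genotypes. Its share of all counts was 1.34% ± 0.165 (SD, n = 4) in proBpreB, 1.15% ± 0.0818 in immature and 0.969% ± 0.0231 in mature flox/WT cells, and 1.17% ± 0.0246, 1.03% ± 0.0665 and 0.907% ± 0.0669 in flox/flox cells. On the TMM scale the sums were 11867 ± 1237, 11809 ± 1095 and 10538 ± 634.8 CPM in flox/WT and 10258 ± 311, 11091 ± 867 and 9706 ± 930 CPM in flox/flox cells, so the order of the first and second stages depends on the scale. Complex IV went from 1826 ± 387.7 CPM in proBpreB to 1459 ± 64.6 CPM in immature flox/WT cells, and complex II from 784 ± 39.2 to 920 ± 71.5 CPM. The proBpreB flox/WT sums differed by library. In replicates 1 to 4 complex IV stood at 1540, 1509, 2336 and 1919 CPM, against 1364 to 1508 CPM in immature flox/WT cells. Its fall thus rests largely on replicates 3 and 4. All members together stood at 11059, 10865, 13578 and 11967 CPM in these 4 libraries. No test was made on these sums.

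**Figure D5:**
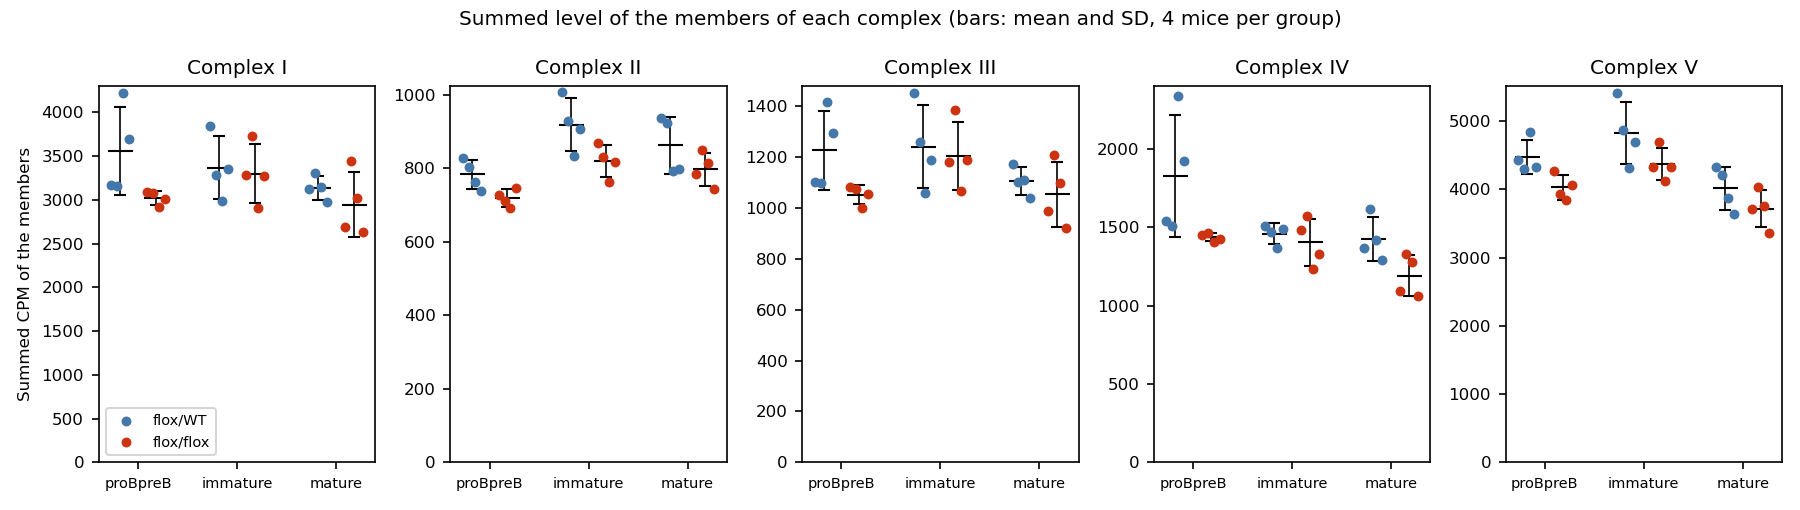
Summed CPM of the members of each complex (vertical axes, starting at 0, each with its own scale) in every library by stage and genotype, with the mean and SD of 4 mice as bars. Complex V holds the largest sums, up to 5411 CPM in an immature flox/WT library, and the proBpreB flox/WT libraries of complex IV spread from 1509 to 2336 CPM.

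From proBpreB to immature cells the members parted by gene. In flox/WT cells 7 were higher and 15 lower (9.21% and 19.7%, against 24.0% and 25.4% of all genes), and in flox/flox cells 12 were higher and 7 lower (15.8% and 9.21%, against 28.7% and 27.2%). The same 5 genes rose in both genotypes: Atp5d, Ndufa13, Sdha, Uqcrc1 and Uqcrfs1, which is 71.4% of the flox/WT and 41.7% of the flox/flox list. The overlap of all genes was not counted, so these percentages have no background. Sdha rose from 284 ± 74.9 to 426 ± 14.6 CPM in flox/WT cells (log2 0.58, edgeR adjusted p = 3.08e-04) and from 288 ± 9.96 to 356 ± 23.3 CPM in flox/flox cells (log2 0.30, edgeR adjusted p = 0.0403). The size of its flox/WT rise depends on proBpreB replicates 3 and 4, at 219 and 220 CPM against 352 and 346 CPM in replicates 1 and 2. Atp5d, the delta subunit of the F1 part, rose by 0.56 and 0.50 on the log2 scale (edgeR adjusted p = 1.30e-04 and 3.70e-04). Uqcrfs1, the Rieske iron-sulphur protein of complex III, rose by 0.43 and 0.67 (edgeR adjusted p = 0.0115 and 2.10e-04).

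The 6 genes lower in both genotypes were Atp5s, Cox6b2, Ndufa4, Ndufs1, Ndufs5 and Uqcr10, or 40.0% of the flox/WT and 85.7% of the flox/flox list. This overlap was not counted over all genes either. Ndufs5 had log2 changes of -0.84 and -0.45 (edgeR adjusted p = 9.85e-07 and 0.00215), and Ndufs1, the largest subunit of complex I, -0.24 and -0.30 (edgeR adjusted p = 0.0371 and 0.0092). Cox6b2, the testis isoform of a complex IV subunit, was low throughout, at 4.68 ± 1.62 CPM in proBpreB and 2.11 ± 0.402 CPM in immature flox/WT cells (log2 -1.14, edgeR adjusted p = 0.0113). It did not pass between genotypes at any stage. Of complex IV, 6 of 12 fell in flox/WT cells, among them Cox7a2 (229 ± 63.8 to 144 ± 6.74 CPM, edgeR adjusted p = 2.81e-04) and Cox5b. These flox/WT falls rest in part on the proBpreB replicates 3 and 4: without them 2 members were lower, in place of 15, and the median log2 change moved from -0.15 to 0.06. Calls over all genes, in either direction, went from 6350 of 12850 to 5144 of 13203 on that exclusion. Without proBpreB flox/WT replicate 3 alone 9 were lower, and without replicate 2 there were 24. Without immature flox/WT replicate 1 the members that rose numbered 3.

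From immature to mature cells most calls of members were falls, though in flox/WT cells the share that fell was that of all genes. In flox/WT cells 2 members rose, the Cox7a2l and Atp5sl genes above, and 13 fell (2.63% and 17.1%, against 15.6% and 17.1% of all genes). In flox/flox cells 0 rose and 17 fell by edgeR (22.4%, against 12.9% higher and 13.6% lower over all genes). At an unadjusted p under 0.05, where all genes were not counted, 4 rose, and 1 rose by DESeq2 or with the mouse as a block. The same 6 genes fell in both genotypes, 46.2% of the flox/WT and 35.3% of the flox/flox list, an overlap not counted over all genes. Among them were Atp5c1 and Atp5f1 of complex V, Ndufs8 of complex I, Sdhd and Uqcrfs1.

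Sdhd had the lowest adjusted p among these falls. It stood at 256, 218, 164 and 189 CPM in immature and 133, 128, 138 and 137 CPM in mature flox/WT cells, and at 228, 221, 174 and 211 against 141, 147, 135 and 125 CPM in flox/flox cells. The stages did not overlap in either genotype (log2 -0.62 and -0.61, edgeR adjusted p = 1.68e-04 and 3.04e-04). Atp5c1, the gamma subunit that turns inside the F1 part, had -0.35 and -0.51 (edgeR adjusted p = 0.0187 and 0.00125). Atp5a1, the alpha subunit, was called in flox/WT cells alone, from 1014 ± 90.4 to 758 ± 119 CPM (edgeR adjusted p = 0.00423), and a difference between genotypes was not shown for it. Cox7a1 fell from 11.5 ± 1.80 to 4.61 ± 1.04 CPM in flox/flox cells (log2 -1.32, edgeR adjusted p = 0.00182). Without mature flox/flox replicates 1 and 4, 3 members fell and 4 rose in flox/flox cells. Calls over all genes, in either direction, went from 3411 of 12850 to 2592 of 13248. The falls in flox/flox cells numbered 5 without immature replicate 2, 7 without mature replicate 1 or 4, 11 without immature replicate 1 and 10 without immature replicate 4. Those in flox/WT cells numbered 7 without immature replicate 1 and 8 without mature replicate 4. Cell cycle genes, given for comparison, summed to a median of 2777 CPM in immature and 693 CPM in mature flox/WT cells, and their part in the members' falls was not tested.

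Genes that build or regulate the chain were read beside the subunits. Of 14 complex I assembly factors, 5 were lower in immature cells (35.7%, against 10.5% of all genes): Ndufaf2, Ndufaf4, Ndufaf5, Ndufaf6 and Foxred1. In mature cells 1 was lower, Ndufaf2 (7.14%, against 6.62%). Ndufaf6 changed from 10.8 ± 2.16 to 5.66 ± 0.969 CPM in immature cells (log2 -0.93, edgeR adjusted p = 0.00284). Sdhaf2, which helps attach the flavin to Sdha, fell from 147 ± 26.3 to 96.3 ± 4.02 CPM in proBpreB cells (edgeR adjusted p = 2.91e-04). Of 22 complex IV assembly factors, Cox15, Cox18 and Cmc2 were lower in immature cells (13.6%, against 10.5% of all genes). In mature cells Cox16 and Cox18 were lower (9.09%, against 6.62%) and Sco1 was higher (4.55%, against 9.69%). Among 18 regulators of mitochondrial biogenesis, Ppargc1a, a coactivator of respiratory genes, rose in immature cells (3.05 ± 0.923 to 8.68 ± 2.08 CPM, edgeR adjusted p = 7.36e-04) and in mature cells (4.17 ± 1.79 to 8.29 ± 2.87 CPM, edgeR adjusted p = 0.0287), while its relative Pprc1 fell in immature cells (75.0 ± 14.1 to 45.2 ± 8.12 CPM, edgeR adjusted p = 0.00240). The 77 genes of mitochondrial ribosomal proteins had 0, 1 and 1 higher and 3, 4 and 10 lower members at the successive stages, with medians of -0.18, -0.13 and -0.14. The lower ones were 3.90%, 5.19% and 13.0% of the list, against 2.75%, 10.5% and 6.62% of all genes, and the higher ones 0%, 1.3% and 1.3%, against 3.38%, 10.2% and 9.69%. The proBpreB difference of this list also moves with flox/WT replicates 3 and 4. Its sums were 4009, 3977, 5015 and 4707 CPM in replicates 1 to 4, against 3764 to 3973 CPM in flox/flox libraries.

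Genes that HIF is known to raise for mitochondrial proteins had larger changes than most members. Bnip3, a receptor for the removal of mitochondria, rose from 45.2 ± 6.14 to 1127 ± 53.0 CPM in proBpreB, from 20.1 ± 3.38 to 1243 ± 115 CPM in immature and from 44.5 ± 4.74 to 1294 ± 142 CPM in mature cells. Pdk1, a kinase that inhibits pyruvate dehydrogenase, rose by 3.10, 2.88 and 2.40 on the log2 scale. Higd1a, a small protein of the inner membrane, rose by 2.18, 2.30 and 2.11. Lonp1, a protease of the matrix, rose by 1.10, 0.44 and 0.56. The edgeR adjusted p of Lonp1 was 4.62e-07, 0.0168 and 0.00315, and those of the other 3 were below these at every stage.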

How the data were processed

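RNA of sorted cells was sequenced after SMARTer Universal Low Input library preparation, per the labels' protocols. The authors deposited raw counts per gene symbol for 24 libraries. The submitters' processing notes name HISAT2 and featureCounts, Trim Galore, CASAVA, FastQC, the build mm10 and DESeq2. Their versions and settings, the annotation and any use of strand: not given in the sources used here. Reads of overlapping genes (Ndufa11 with Vmac, Atp5d with Cbarp, Ndufb8 with Gm20538) or of processed pseudogenes, which respiratory genes often have, therefore cannot be told apart.

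The main test was the edgeR 4.0.16 model (R 4.3.3, TMM scaling, low genes removed with filterByExpr, robust quasi-likelihood fit, 24 libraries, 18 residual degrees of freedom). P-values were adjusted by Benjamini-Hochberg over 12850 genes within each of 10 comparisons. SE is the log2 change over the root of the F statistic. Lengths and overlaps are from GENCODE M21, positions and promoters from RefSeq GRCm38.p6, and 68 of 79 members had a promoter sequence. Alternatives were DESeq2 1.42.0, other scaling, filters and fits, blocks and left-out libraries. The fit was tested on simulated data for the proBpreB genotype contrast, where 5.62% of edgeR calls were false. Genes were drawn independently there, without mouse effects or shifts shared within a library. That share therefore does not give the rate of false calls in the real libraries.

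The members and lists were chosen with earlier results of these data known. Named are all of complex II, up to 4 called members per complex and direction by adjusted p, the 3 smallest genotype changes per stage, tissue isoforms, and up to 4 called genes of other lists. Foxred1, Ndufv1, Ndufv2, Cox7a2 between genotypes, Atp5b and the sums were named after their values were seen. Some results that the rule names are not reported here.

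Libraries of 1 mouse pair the stages, as the host label says: deviations of same-mouse libraries correlated at 0.0277 to 0.295 over 16 pairs. Mice are the replicates within each group. The main fit treated all libraries as independent, also between stages, and the mouse was a block only in an alternative. Counts of libraries within a group differed by a chi-square of at least 6.05 per degree of freedom, and none was counted as a repeat. PCR copies were not marked, so intervals and floors cover counting error only. Overlap of groups means that the lowest library of one lies below the highest of the other.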

Additional observations from a re-analysis of the deposited data

Results flagged for a closer look

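The effect of genotype differed between mature and immature cells for Cox7a2l (a difference of -0.71 on the log2 scale) and Atp5sl (-0.93), by the test of the difference itself.

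Of 318 groups of 4 libraries examined for 47 named members and the sums of the complexes, 6 (1.9%) held 1 library far from the other 3, where chance gives about 1 in 20. In immature flox/flox replicate 2, Atp5e stood at 140.8 CPM against 114.9 to 116.4 CPM in the others, and Atp5g3 at 280 CPM against 238.2 to 242.4 CPM. In mature flox/flox replicate 2, Ndufa13 stood at 136.7 CPM against 100.3 to 102.4 CPM, Ndufb11 at 128.7 CPM against 99.3 to 102.3 CPM and Ndufs3 at 77.6 CPM against 69.1 to 69.8 CPM. Both libraries come from the same mouse. Cox7b stood at 90.0 CPM in proBpreB flox/flox replicate 4 against 95.5 to 96.0 CPM.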

How the results depend on the processing

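Of 98 member calls over all comparisons, 39 were kept in every alternative run. Over 1445 refits of called members 1166 passed with the same direction, 278 kept the direction without passing and 1 reversed: Cox7b between immature and proBpreB flox/WT cells, at 0.061 without proBpreB flox/WT replicates 3 and 4 (edgeR adjusted p = 0.754). That exclusion and the one of mature flox/flox replicates 1 and 4 were chosen after seeing the data and removed more calls than any other setting. Calls over all genes fell too, from 788 to 440 between proBpreB genotypes and from 2096 to 1508 between mature genotypes.

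Without proBpreB flox/WT replicates 3 and 4, the lower members were 0 between proBpreB genotypes (median -0.060) and 2 between immature and proBpreB flox/WT cells (median 0.058). The genotype effect then differed for 1 member between immature and proBpreB (median 0.0094) and 2 between mature and proBpreB cells (median -0.052). Without mature flox/flox replicates 1 and 4, the lower members were 2 between mature genotypes, 4 rose and 3 fell from immature to mature flox/flox cells, and 1 differed between mature and proBpreB.

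DESeq2 gave 12 lower members between proBpreB genotypes, 1 higher from immature to mature flox/flox cells and 1 different effect between immature and proBpreB, as did a filter of 10 CPM. Fitting only the groups compared gave 4 lower members between mature genotypes, and from immature to mature cells 1 higher in flox/WT and 11 lower in flox/flox cells. Without an expression filter those were 1 and 9.

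Leaving out 1 library at a time gave 2 to 14 lower members between proBpreB genotypes and 3 to 15 between mature genotypes. Calls over all genes, in either direction, then ran from 493 to 889 and from 1607 to 2214. From proBpreB to immature flox/WT cells 3 to 9 were higher and 9 to 24 lower. From immature to mature cells 1 to 2 were higher and 7 to 15 lower in flox/WT, 0 to 1 higher and 5 to 23 lower in flox/flox cells. A different genotype effect was found for 0 to 3 members between immature and proBpreB and 0 to 1 between mature and proBpreB. 

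With the mouse as a block, 1 member was higher from immature to mature flox/flox cells and 1 differed between mature and proBpreB; no other count moved by over 1.5 times. Replicate numbers across genotypes are different mice and share only a number (12 pairs, correlations of -0.086 to 0.381, 7 highest with their own number). With the replicate number as a block, 2, 2 and 2 members were higher and 5, 3 and 9 lower between proBpreB, immature and mature genotypes. Other scaling moved the median of all genes by less than 0.1. On simulated counts for the proBpreB genotype contrast edgeR recovered 10% of 1.3-fold changes; the other comparisons were not simulated.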
